A study of Arabidopsis thaliana with 42 samples.

Results

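The genes described here are 37 Arabidopsis thaliana loci of the core cell cycle machinery, of 22260 loci named in the deposited annotation. They comprise 24 cyclins (4 of the CYCB1, 4 of the CYCB2, 7 of the CYCA and 9 of the CYCD class), 5 cyclin-dependent kinases (CDKs), 5 KRP inhibitors, the inhibitors SIM and SMR1, and the cytokinesis gene KNOLLE. A probe set was taken as a member where the deposited annotation names one of these loci. Of the 37 loci 36 had a probe set, which gave 35 of the 22810 probe sets on the array, and 34 of these were tested. CYCD7;1 had no probe set. CYCA2;1 was not among the tested probe sets, and its 42 values lay between -0.0419 and 0.0459 on the log2 scale. CDKB1;1 and CDKB1;2 share a probe set, and the probe set of CYCB2;3 also matches the locus AT1G20590, so their transcripts cannot be told apart. The probe set of CYCB1;2 likewise matches AT1G34460.

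Cyclins bind CDKs and switch them on, and their turnover gives the cell cycle its order. D-type cyclins act mainly at entry into the cycle with CDKA;1, A-type cyclins mainly from DNA replication onward, and B-type cyclins with the plant-specific CDKB kinases at mitosis. KRP and SIM/SMR proteins bind CDK complexes and inhibit them, and in leaves they are known for holding back division and for favouring endoreduplication, in which DNA is copied without division.

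The study measured transcripts of whole seedlings with Affymetrix ATH1 arrays after activation of 2 leaf polarity factors. REVOLUTA (REV) promotes adaxial and KANADI1 (KAN1) promotes abaxial cell fate, and each was fused to the hormone-binding part of the glucocorticoid receptor, which keeps a fusion out of the nucleus until dexamethasone (DEX) is added. The 42 arrays form 14 groups of 3, one for each combination of line, DEX time and day of culture that was sampled. Seedlings of ecotype Columbia were 7 days old, grew as 50 seeds to a flask, and were given 50 µM DEX, with a flask of its own for each sample.

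GR-REV seedlings, which carry 35S::GR-REV, were frozen at 0, 30, 60 and 120 min, as were wild-type replicates 1 to 3, which were grown with them (day 1). KAN1-GR seedlings, which carry 35S::KAN1-GR, were frozen at 0, 30 and 60 min, as were wild-type replicates 4 to 6 (day 2). The 0 min seedlings were frozen just before DEX was given to the others, and wild type received DEX as well. The 35S promoter is active in most tissues, and the labels name 1 line for each construct. In whole seedlings fewer cells of a type and less RNA per cell cannot be told apart.

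In the deposited table a log2 value of 0 is the median of the 6 untreated wild-type arrays. Absolute levels are therefore not known, levels cannot be compared between genes, and tissue markers cannot be checked by their level. Before DEX, REV read 4.21 to 4.42 in GR-REV arrays and 0.08 to 0.40 in wild-type arrays of the day. KAN1 read 8.91 to 9.39 in KAN1-GR arrays and -0.01 to 0.50 in wild-type arrays of the day, so both lines matched their labels. The spread of an array about its group mean ranged from 0.134 to 0.295 over the tested probe sets and was largest for replicate 3 of GR-REV at 0 min.

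Responses to DEX were taken as a line's change from its own 0 min less the change of the wild type of its day. A difference is said to be called where limma's Benjamini-Hochberg adjusted p, over all 16129 tested probe sets, was under 0.05. Of the 34 tested member probe sets 22 were called in at least 1 of 15 comparisons and 12 in none.

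In the 5 responses of the lines to DEX the calls fell on CDK inhibitors. Of 7 inhibitors 5 were called at some time (KRP1, KRP2, KRP7, SIM and SMR1), with 11 calls in all. None of the other 27 probe sets, which are the cyclins, the CDKs and KNOLLE, was called in any of the 5. At the shares of all tested probe sets given below, 27 probe sets would hold few calls in each response. With a single reference some of the 27 were called too, as given further on. In GR-REV limma called 3, 3 and 2 of 34 members at 30, 60 and 120 min, against 1.38%, 4.36% and 3.84% of all tested probe sets. In KAN1-GR it called 1 and 2 members at 30 and 60 min, against 2.4% and 6.84%.

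KRP7 (AT1G49620) had the largest response of the tested members in GR-REV at each time. After 30 min it read 1.74, 2.39 and 2.36 in GR-REV, against 0.53, 0.32 and 0.53 in wild type of the day. Before DEX it read 0.27, 0.19 and 0.24 in GR-REV and 0.27, 0.53 and -0.35 in wild type, so at 30 min every GR-REV array stood above every array of both references. The response was 1.62 ± 0.30 (SE, n = 3 arrays per group), a 3.07-fold rise (limma, adjusted p = 0.00162).

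The higher KRP7 level lasted to the end of the series. At 60 min GR-REV arrays read 1.35, 1.93 and 1.98 and wild-type arrays 0.47, 0.31 and 0.51. At 120 min GR-REV arrays read 1.91, 1.77 and 1.96 and wild-type arrays 0.42, 0.45 and 0.23. The groups did not overlap at either time, and KRP7 rose by 1.24 ± 0.30 at 60 min (adjusted p = 0.0099) and by 1.43 ± 0.30 at 120 min (adjusted p = 0.00355). All 3 calls held without any single array, and all 3 were lost after quantile normalisation between arrays, where the responses were 1.13, 0.84 and 1.16 (adjusted p = 0.284, 0.355 and 0.125).

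In KAN1-GR the same probe set read 0.53, 1.05 and 0.92 at 30 min and 0.75, 0.75 and 0.52 at 60 min, against 0.43, 0.49 and -0.06 and then 0.02, 0.14 and 0.51 in wild type of day 2. KAN1-GR arrays lay above the wild-type arrays at both times, but KRP7 had also read 0.27, 0.52 and 0.51 in KAN1-GR before DEX, against 0.31, -0.27 and -0.59 in wild type. Its responses of -0.07 ± 0.30 and -0.16 ± 0.30 were not called (adjusted p = 0.966 and 0.841).

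KRP2 (AT3G50630), an inhibitor known to restrain the divisions that start lateral roots, was also called at every time in GR-REV. At 30 min it read 0.45, 0.80 and 0.62 in GR-REV, against -0.11, -0.15 and 0.10 in wild type. Before DEX the values were -0.38, -0.13 and -0.00 in GR-REV and -0.06, 0.11 and 0.09 in wild type. The 30 min arrays of GR-REV lay above both references, and the response was 0.89 ± 0.17 (1.86-fold, adjusted p = 0.00317). This call held without any single array and under every alternative tried.

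Later KRP2 responses were smaller. GR-REV arrays read 0.11, 0.33 and 0.74 at 60 min and 0.39, 0.47 and 0.53 at 120 min, and wild-type arrays -0.00, 0.08 and 0.01 and then 0.01, 0.12 and 0.05, with no overlap at either time. The responses were 0.58 ± 0.17 (adjusted p = 0.0484) and 0.62 ± 0.17 (adjusted p = 0.0366). They stood close to the threshold: the 60 min call was kept in 2 and the 120 min call in 3 of 12 fits that each left out 1 array, where the values ranged from 0.41 to 0.72 and from 0.52 to 0.71. Both calls were lost after quantile normalisation (0.50 and 0.60, adjusted p = 0.19 and 0.0858), and the 60 min call also with median centring, with all probe sets tested and with an unmoderated spread (adjusted p = 0.0766, 0.0565 and 0.0501).

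KRP2 in KAN1-GR read 0.89, 0.70 and 0.56 at 60 min, against 0.10, 0.20 and 0.18 in the same line before DEX. Wild type of day 2 read -0.07, 0.18 and 0.07 at 60 min. The KAN1-GR arrays at 60 min did not overlap with either, and limma called KRP2 with either one as the sole reference, at 0.66 ± 0.12 against the 60 min wild type (adjusted p = 0.000152) and at 0.56 ± 0.12 against untreated KAN1-GR (adjusted p = 0.00149). With both references the response was 0.40 ± 0.17 and was not called (adjusted p = 0.191).

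SMR1 (AT3G10525), an inhibitor that promotes the giant endoreduplicated cells of sepals, had responses of opposite sign in the lines. In GR-REV it read 1.19, 1.25 and 1.05 at 30 min and 0.92, 1.05 and 1.18 at 60 min, against 0.57, 0.37 and 0.50 and then 0.18, 0.14 and -0.26 in wild type of day 1. At 0 min GR-REV read 0.49, 0.24 and 0.33. The GR-REV arrays lay above both references at both times, and the response of 0.76 ± 0.19 at 60 min was called (1.7-fold, adjusted p = 0.0136). That call was lost without replicate 3 of wild type at 0 min (0.61, adjusted p = 0.058) or at 60 min (0.62, 0.0584), and without replicate 3 of GR-REV at 60 min (0.70, 0.0501). It was also lost after quantile normalisation (0.68, adjusted p = 0.127).

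At 30 min the SMR1 response of 0.42 ± 0.19 in GR-REV was not called (adjusted p = 0.417), and wild type of day 1 had read 0.03, -0.15 and 0.39 before DEX, lower on average than at 30 min. At 120 min SMR1 read 0.68, 0.56 and 0.53 in GR-REV and its response was 0.20 ± 0.19 (adjusted p = 0.675). KAN1-GR arrays read -0.60, -0.59 and -0.26 at 30 min and -0.10, -0.41 and 0.06 at 60 min, all below the same line's 0.35, 0.18 and 0.32 before DEX. Wild type of day 2 read -0.22, -0.16 and -0.21 at 30 min, above every KAN1-GR array of that time. The KAN1-GR responses of -0.59 ± 0.19 and -0.47 ± 0.19 were not called (adjusted p = 0.103 and 0.155). Both include a higher SMR1 level in KAN1-GR before DEX, 0.31 above wild type of day 2, a difference that was not called. At 60 min the mean was -0.15 in KAN1-GR and 0.01 in wild type of day 2.

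**Figure D1:**
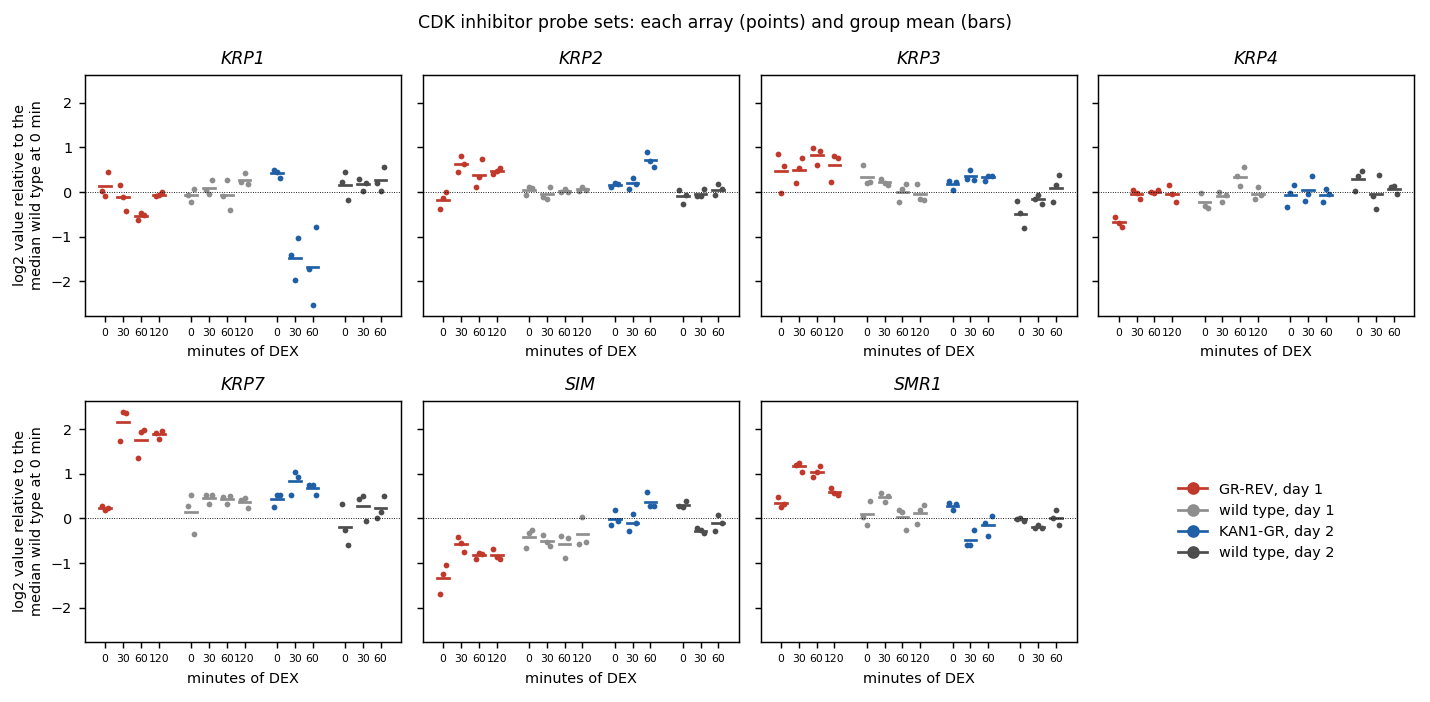
Log2 value relative to the median wild type at 0 min of the 7 CDK inhibitor probe sets, by minutes of DEX. Points are arrays and bars are means of 3 arrays. GR-REV of day 1 and its wild type stand left of KAN1-GR of day 2 and its wild type in each panel. KRP7 reaches 2.39 in GR-REV at 30 min and KRP1 drops to -2.52 in KAN1-GR at 60 min.

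KRP1 (AT2G23430), which blocks CDKA;1 with D-type cyclins and enlarges cells when overexpressed, was the only member with a response of more than 4-fold. In KAN1-GR it read -1.41, -1.96 and -1.02 at 30 min and -1.72, -2.52 and -0.78 at 60 min. The same line read 0.49, 0.44 and 0.33 before DEX, and wild type of day 2 read 0.30, 0.03 and 0.19 at 30 min and 0.21, 0.03 and 0.56 at 60 min. Every array of KAN1-GR after DEX lay below every array of both references. KRP1 fell by 1.89 ± 0.36 on the log2 scale at 30 min (3.72-fold lower, adjusted p = 0.00141) and by 2.19 ± 0.36 at 60 min (4.57-fold lower, adjusted p = 8.77e-05). Both calls held without any single array and under every alternative tried.

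KRP1 in GR-REV at 60 min read -0.62, -0.46 and -0.50, below the -0.08, 0.28 and -0.39 of wild type. The response of -0.67 ± 0.36 was not called (95% interval -1.41 to 0.07, adjusted p = 0.392), nor were those of -0.41 at 30 min and -0.53 at 120 min. The difference between the lines was 1.48 ± 0.51 at 30 min and 1.52 ± 0.51 at 60 min, and it was not called either (adjusted p = 0.154 and 0.0747).

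SIM (AT5G04470), which keeps trichomes single-celled, differed before DEX. It read -1.70, -1.25 and -1.05 in GR-REV at 0 min, against -0.65, -0.34 and -0.26 in wild type of the day, with no overlap (-0.92 ± 0.16, 1.89-fold lower, adjusted p = 9.93e-05). After 30 min SIM read -0.41, -0.56 and -0.74 in GR-REV and -0.38, -0.53 and -0.62 in wild type, which overlap. The called response of 0.86 ± 0.22 at 30 min (adjusted p = 0.0441) therefore stood on the 0 min difference: with the 30 min wild type as the sole reference the value was -0.06 ± 0.16 (adjusted p = 0.905). It was also lost in 9 of 12 fits without 1 array, after quantile normalisation (0.58, adjusted p = 0.338), and with all probe sets tested, an unmoderated spread and a block for replicate number (adjusted p = 0.061, 0.0579 and 0.0825).

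In KAN1-GR SIM read 0.58, 0.28 and 0.27 at 60 min, against -0.29, 0.07 and -0.11 in wild type of day 2. Before DEX KAN1-GR read -0.15, 0.19 and -0.06 and wild type 0.27, 0.26 and 0.40. The arrays of KAN1-GR at 60 min lay above wild type at that time and above the line's own 0 min, and the response was 0.80 ± 0.22 (1.74-fold, adjusted p = 0.0231). With untreated KAN1-GR as the sole reference it was 0.38 ± 0.16 (adjusted p = 0.124), and it was kept in 7 of 12 fits without 1 array.

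KRP3 and KRP4 were not called in any response. KRP3 was closest in GR-REV at 60 min, where it read 0.99, 0.60 and 0.92, against -0.21, 0.07 and 0.17 in wild type (0.69 ± 0.26, adjusted p = 0.153). The groups did not overlap there, while GR-REV had already read 0.86, -0.01 and 0.59 before DEX. KRP4 responses ranged from 0.11 to 0.50 over the 5 comparisons.

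The difference between the lines' responses was tested directly, as GR-REV minus KAN1-GR. At 30 min it was called for 3 members, KRP7 (1.69 ± 0.42, adjusted p = 0.0212), SMR1 (1.01 ± 0.27, adjusted p = 0.0342) and KRP2 (0.92 ± 0.25, adjusted p = 0.0352), against 2.25% of all tested probe sets. At 60 min it was called for KRP7 (1.40 ± 0.42, adjusted p = 0.0363) and SMR1 (1.23 ± 0.27, adjusted p = 0.00306), against 6.36%. All 5 differences were positive. The lines were grown on different days, so line and day cannot be told apart in them beyond what the wild type of each day removes. The SMR1 call at 60 min held under every alternative and without any single array. The other 4 were lost after quantile normalisation.

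**Figure D2:**
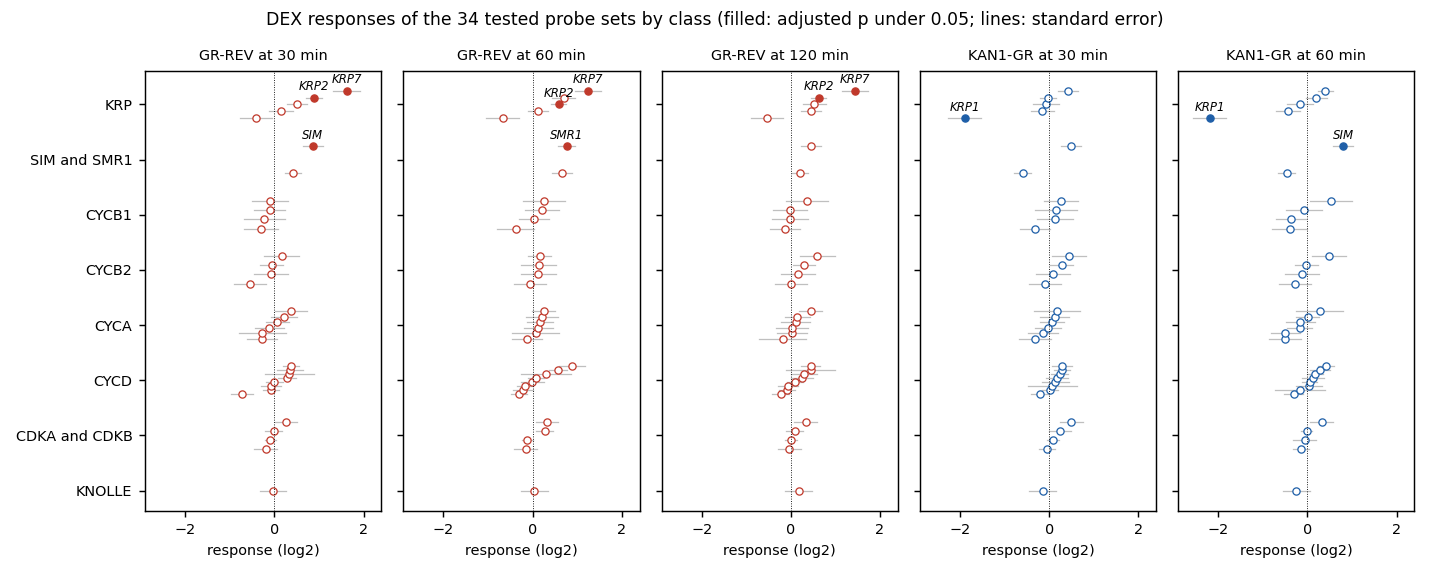
DEX responses (log2, change from own 0 min less that of wild type of the day) of the 34 tested member probe sets by class, for GR-REV at 30, 60 and 120 min and KAN1-GR at 30 and 60 min. Filled points are called by limma and lines are standard errors. All 11 filled points lie in the KRP and SIM/SMR1 rows.

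Cyclins, CDKs and KNOLLE had no call in the same responses. At unadjusted p under 0.05 there were 2, 2 and 1 of 27 in GR-REV at 30, 60 and 120 min and 0 and 1 in KAN1-GR at 30 and 60 min. Fits with an unmoderated spread called 0 of them in each response. Their responses ranged from -0.73 to 0.38, from -0.38 to 0.88 and from -0.23 to 0.59 in GR-REV, and from -0.33 to 0.50 and from -0.51 to 0.53 in KAN1-GR. The 95% interval lay within a 2-fold change either way for 20, 22 and 23 of 27 in GR-REV and for 19 and 18 in KAN1-GR, so a 2-fold change of the remaining members could not be set aside at this number of arrays. With time-matched wild type as the sole reference 1, 4 and 2 of the 27 were called in GR-REV at 30, 60 and 120 min, against 9.05%, 12.8% and 15.4% of all tested probe sets, and 6 and 3 in KAN1-GR at 30 and 60 min, against 14% and 18%. Of the 7 inhibitors 3, 4 and 5 were called there in GR-REV and 1 and 3 in KAN1-GR. With untreated seedlings of the line as the sole reference 5, 3 and 2 of the 27 were called in GR-REV, against 17%, 18.1% and 12%, and 2 and 1 in KAN1-GR, against 6.41% and 12.3%. Of the inhibitors 5, 5 and 4 were called with that reference in GR-REV and 2 and 3 in KAN1-GR.

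Among B-type cyclins, whose proteins drive mitosis, the medians of the 4 CYCB1 genes were -0.17, 0.12 and -0.02 in GR-REV and 0.14 and -0.22 in KAN1-GR. Those of the 4 CYCB2 genes were -0.07, 0.13 and 0.23 in GR-REV and 0.18 and -0.07 in KAN1-GR. Over all tested probe sets the medians lay between -0.05 and 0.02. CYCB1;1, the usual marker of cells in G2 and mitosis, had responses of -0.10, -0.38 and -0.02 in GR-REV, each with a standard error of 0.41. KNOLLE, the syntaxin that fuses vesicles at the new cell plate, had responses between -0.25 and 0.18 over the 5 comparisons, with a standard error of 0.30.

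Outside the inhibitors the member nearest to a call was a D-type cyclin in 4 of the 5 responses and the shared CDKB1 probe set in KAN1-GR at 30 min. In GR-REV it was CYCD4;1 at 30 min, which fell (-0.73 ± 0.25, adjusted p = 0.201). It was CYCD5;1 at 60 min and CYCD3;1 at 120 min (0.44 ± 0.21, adjusted p = 0.283). In KAN1-GR at 60 min it was CYCD3;2 (0.41 ± 0.18, adjusted p = 0.21). CYCD5;1 read 1.34, 0.47 and 1.38 in GR-REV at 60 min, against 0.03, 0.16 and 0.17 in wild type, and -0.05, 0.08 and 0.76 in GR-REV before DEX. The 60 min arrays lay above wild type and overlapped with the line's own 0 min, whose replicate 3 was high (0.88 ± 0.30, adjusted p = 0.0942). CYCD3;1, a cytokinin-responsive cyclin that drives cells into the cycle, read 0.79, 0.86 and 0.91 in GR-REV at 60 min, against 0.32, 0.41 and 0.39 in wild type and 0.50, -0.09 and 0.47 in GR-REV at 0 min. Its 60 min arrays lay above both references, and the response of 0.56 ± 0.21 was not called (adjusted p = 0.132). In KAN1-GR CYCD3;1 had responses of -0.21 and -0.31, with adjusted p of 0.796 and 0.461.

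CDKA;1, the kinase used at both entry into DNA replication and entry into mitosis, varied least of the tested members. Its 14 group means spanned 0.193, with a spread within groups of 0.0977, and its responses lay between -0.12 and 0.08 with a standard error of 0.13. The shared probe set of CDKB1;1 and CDKB1;2 had the highest CDK response, 0.50 ± 0.26 in KAN1-GR at 30 min (adjusted p = 0.464). The group means of KRP7 spanned 2.34 and those of KRP1 2.09, the widest of all tested members.

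Members were also compared between the lines and wild type before DEX. In GR-REV 3 of 34 were called, against 15.9% of all tested probe sets, among them SIM above. CYCA2;2, of a class that holds back endoreduplication, read -1.71, -0.90 and -0.46 in GR-REV, against 0.17, 0.03 and -0.06 in wild type (-1.08 ± 0.25, 2.11-fold lower, adjusted p = 0.00318). The groups did not overlap, but GR-REV replicate 1 was far lower than the others and without it the value was -0.73 (adjusted p = 0.0536). CYCD4;1, a D-type cyclin of the root pericycle and the stomatal lineage, read 0.91, 1.07 and 1.31 in GR-REV, against 0.42, 0.53 and 0.16 in wild type (0.72 ± 0.18, 1.65-fold, adjusted p = 0.00473). Those groups did not overlap either, but after quantile normalisation the value was 0.32 and the call was lost (adjusted p = 0.308).

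In KAN1-GR 5 of 34 members were called before DEX, all higher, against 10.7% of all tested probe sets called and 4.94% called higher. They were CYCB1;3 (0.82 ± 0.27, adjusted p = 0.0478), CYCA1;1 (0.76 ± 0.24, adjusted p = 0.034), KRP3 (0.67 ± 0.19, adjusted p = 0.0193), CYCA3;1 (0.65 ± 0.20, adjusted p = 0.0368) and CYCD3;1 (0.46 ± 0.15, adjusted p = 0.0384). Wild type of day 2 at 0 min, the reference here, varied between arrays. Its mean of the B-type cyclins deviated from the group mean by 0.36 in replicate 4 and by -0.34 in replicate 6. CYCB1;3 read 0.20, 0.20 and -0.20 in KAN1-GR, against -0.18, -0.56 and -1.52 in wild type of day 2, and without replicate 6 the difference was 0.44 (adjusted p = 0.414). Each of the 5 calls was kept in 1 to 3 of 6 fits without 1 array. All 5 were lost without replicate 6 of that wild type, and likewise without replicate 1 or replicate 3 of KAN1-GR. With all probe sets tested CYCB1;3, CYCA3;1 and CYCA1;1 were not called (adjusted p = 0.072, 0.0535 and 0.0505). Against the wild types of both days 0 of the 5 were called, and CYCA3;1 had the opposite sign (-0.06, adjusted p = 0.89).

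The widest pattern among the members lay in untreated wild type itself. At 0 min limma called 17 of 34 members between wild type of day 1 and wild type of day 2, against 22.9% of all tested probe sets. Of the 17, 14 were higher on day 1, against 11.8% of all probe sets called higher, and 3 were lower, against 11.2%. The median difference was 0.436 over the members and 0.026 over all tested probe sets. Both groups are untreated Columbia seedlings grown at different times, so day of culture and anything that differed with it cannot be told apart. Because each probe set is centred on these 6 arrays, the innermost array of each day mirrors that of the other where the days do not overlap.

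The 14 members that were higher on day 1 came from 4 cyclin classes, the CDKB class, KNOLLE and KRP3. CYCA3;1, a cyclin that peaks at DNA replication, read 0.87, 1.06 and 0.46 on day 1, against -0.46, -0.82 and -0.59 on day 2 (1.42 ± 0.20, 2.68-fold, adjusted p = 2.38e-05). KNOLLE read 0.91, 0.46 and 0.15 on day 1, against -0.15, -0.32 and -0.65 on day 2 (0.88 ± 0.21, adjusted p = 0.00364). CYCB2;2 read 1.03, 0.25 and 0.14 on day 1, against -0.14, -0.62 and -1.00 on day 2 (1.06 ± 0.25, adjusted p = 0.0031). All day 1 arrays lay above all day 2 arrays in these 3 genes.

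Of the CYCB1 class 3 of 4 were called higher, with CYCB1;3 at 1.13 ± 0.27, CYCB1;1 at 0.98 ± 0.29 and CYCB1;4 at 0.83 ± 0.24 (adjusted p = 0.00361, 0.0132 and 0.0123). Of the CYCB2 class 2 of 4, of the CYCA class 2 of 6 and of the CYCD class 4 of 8 were called higher. The D-type cyclins CYCD3;1 (0.60 ± 0.15), CYCD3;2 (0.44 ± 0.13) and CYCD3;3 (0.51 ± 0.16), which extend the dividing phase of leaves, were called together with CYCD4;1 (0.61 ± 0.18). CDKB2;1, a mitotic kinase, was 0.58 ± 0.13 higher (adjusted p = 0.00213), and KRP3 was 0.84 ± 0.19 higher (adjusted p = 0.00189).

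The 3 members lower on day 1 were SIM (-0.73 ± 0.16, adjusted p = 0.00166), KRP4 (-0.51 ± 0.16, adjusted p = 0.0208) and CYCD1;1 (-1.07 ± 0.39, adjusted p = 0.0469). CYCD1;1 read -0.09, -2.23 and -0.30 on day 1, against 0.21, 0.09 and 0.28 on day 2, and without the low replicate 2 the difference was -0.39 (adjusted p = 0.495). Leaving out 1 array gave 9 to 19 calls over the 34 members. Without replicate 6 of day 2, CYCB1;3 stood at 0.74 (adjusted p = 0.0604) and CYCA1;1 at 0.65 (adjusted p = 0.0624), while CYCA3;1, KNOLLE, CYCB2;2, CDKB2;1, CYCD3;1, KRP3 and SIM kept their calls without any single array. The other 8 called members kept theirs in 2 to 5 of 6 such fits. CYCD1;1 and CYCB2;3 also lost theirs with all probe sets tested (adjusted p = 0.0726 and 0.0669) and with an unmoderated spread (0.0632 and 0.0582).

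**Figure D3:**
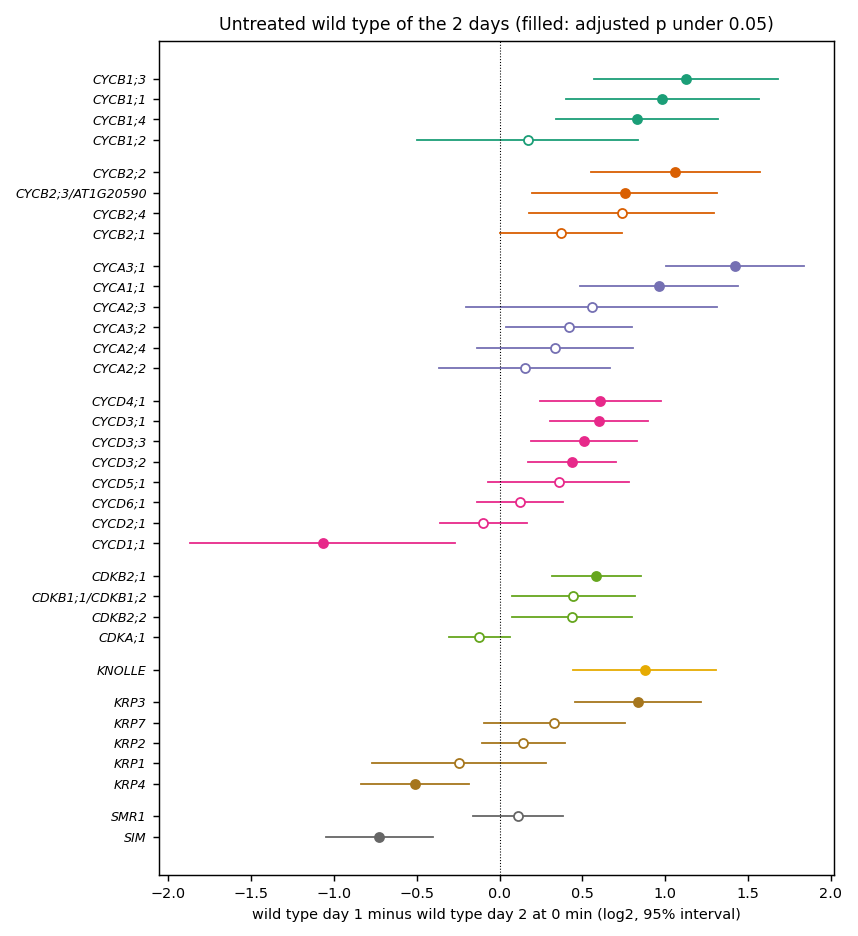
Difference of untreated wild type, day 1 minus day 2 at 0 min (log2), for the 34 tested member probe sets, ordered by class. Points are differences of 3 arrays against 3, lines are 95% intervals, and filled points are called by limma. Of the filled points 14 lie right of 0 and 3 lie left of it.

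The same direction was seen in wild type given DEX, in arrays that the 0 min comparison did not use. At 0, 30 and 60 min 28, 29 and 27 of 34 members had a higher mean on day 1, with median differences of 0.436, 0.392 and 0.253. The arrays of the days did not overlap for 19, 19 and 12 members, against 38%, 44.5% and 34.8% of all tested probe sets. Of the 17 members called at 0 min 16 had the same sign at 30 min and 14 at 60 min, and 11 and 7 did not overlap. For the 14 higher members the median difference was 0.834 before DEX, 0.444 after 30 min and 0.302 after 60 min. The 17 and the 14 were picked by their 0 min values, which raises their 0 min differences. The fall over these members therefore cannot be read as a change with time.

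Whether wild type changed differently with DEX on the 2 days was tested as well. Limma called 0 members at 30 min and 0 at 60 min, against 3.45% and 1.4% of all tested probe sets, with 5 and 8 members at unadjusted p under 0.05 and 0 and 0 with an unmoderated spread. The lowest adjusted p was 0.0911 for SMR1 at 30 min (0.57 ± 0.19) and 0.0652 for KRP3 at 60 min (-0.92 ± 0.26).

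In wild type given DEX limma called 0 of 34 members at 30, 60 and 120 min, against 3.87%, 2.33% and 5.13% of all tested probe sets, with 5, 2 and 2 at unadjusted p under 0.05 and 0 at each time with an unmoderated spread. The lowest adjusted p was 0.085 for SIM at 30 min (-0.34 ± 0.11), 0.195 for SIM at 60 min (-0.29 ± 0.11) and 0.118 for CYCD1;1 at 120 min (1.04 ± 0.39).

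**Figure D4:**
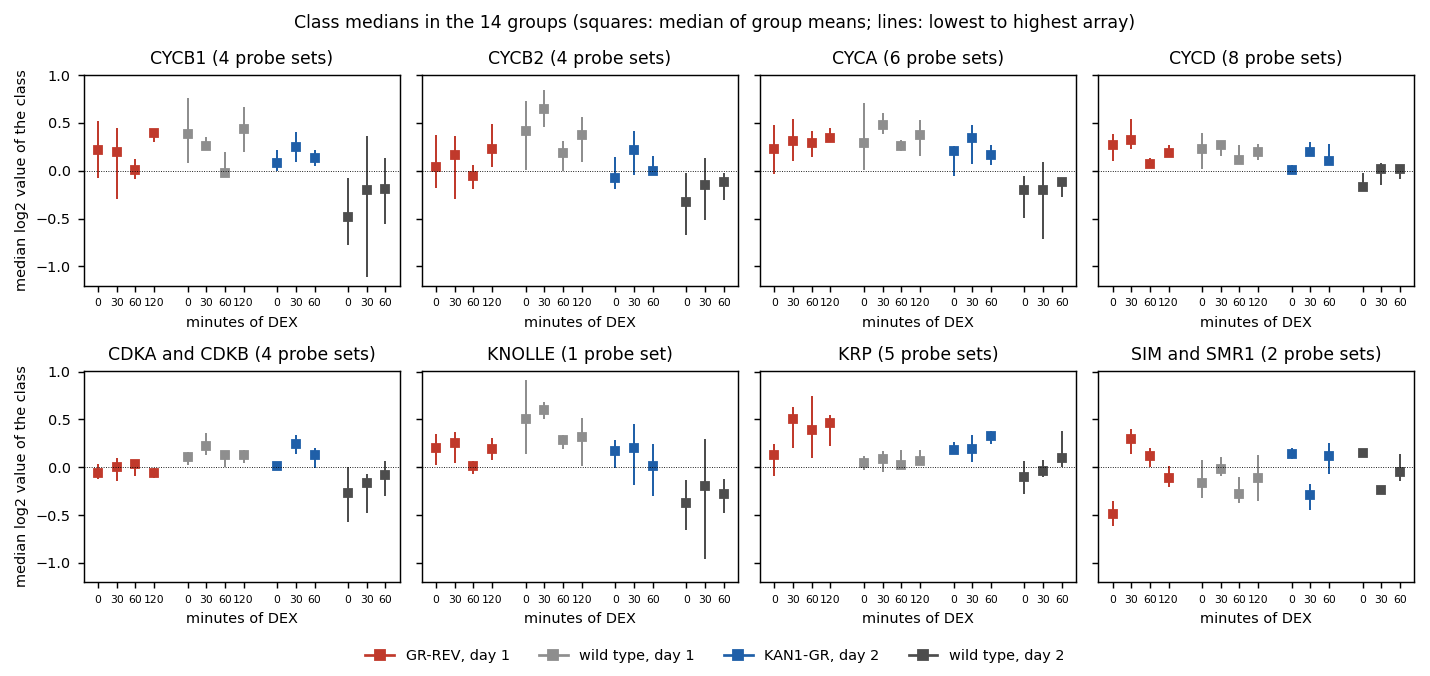
Median over each class of the group means (log2 value relative to the median wild type at 0 min) against minutes of DEX, for GR-REV and wild type of day 1 and KAN1-GR and wild type of day 2. Lines run from the lowest to the highest array median. The CYCB1 and CYCB2 medians are 0.39 and 0.42 in wild type of day 1 and -0.48 and -0.33 in wild type of day 2 at 0 min. The KRP median is 0.50 in GR-REV and 0.09 in its wild type at 30 min.

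Over the 14 groups the 8 B-type cyclin probe sets had a median of group means of 0.13, 0.16, -0.03 and 0.25 in GR-REV at 0, 30, 60 and 120 min, against 0.41, 0.41, 0.12 and 0.41 in wild type of day 1. In KAN1-GR the median was -0.03, 0.24 and 0.06 at 0, 30 and 60 min, against -0.37, -0.17 and -0.12 in wild type of day 2. The line thus stood below its wild type at each time on day 1 and above it at each time on day 2, and no B-type response was called. The 7 inhibitors had medians of 0.13, 0.50, 0.39 and 0.47 in GR-REV, against 0.05, 0.09, 0.02 and 0.06 in wild type of day 1. In KAN1-GR their medians were 0.18, 0.05 and 0.33 at 0, 30 and 60 min, against -0.02, -0.04 and 0.07 in wild type of day 2. This pooled median, like that of the KRP class, stood above wild type at each time in both lines, before DEX too. The SIM and SMR1 median did not: in GR-REV it was -0.49, 0.30, 0.11 and -0.12, against -0.16, -0.01, -0.28 and -0.12 in wild type. In KAN1-GR it was 0.14, -0.29 and 0.11, against 0.14, -0.23 and -0.05.

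B-type cyclins also varied together between arrays of 1 group. After group means were removed, the median pairwise Pearson's r over 42 arrays was 0.505 for the 28 pairs of the 8 probe sets, from -0.185 to 0.72, and -0.0049 for the 21 pairs of inhibitors. The members most like the B-type mean that are not B-type cyclins were KNOLLE (r = 0.888), CYCA1;1 (0.847), CDKB2;1 (0.782) and KRP7 (0.765). CYCB2;1 was the exception in its own class (0.104), and CYCD2;1 (-0.557) and CDKA;1 (-0.377) lay at the other end. These are descriptions over arrays that each share a hybridisation and a scaling among all their genes, with no test. For KNOLLE r was 0.852 (Spearman's rho 0.855) without the 2 arrays farthest from the median of the B-type mean. They were replicate 6 of wild type of day 2 and replicate 1 of GR-REV, both at 30 min. Replicate 5 of that wild type, at 0.37 for the B-type mean and 0.48 for KNOLLE, was kept.

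**Figure D5:**
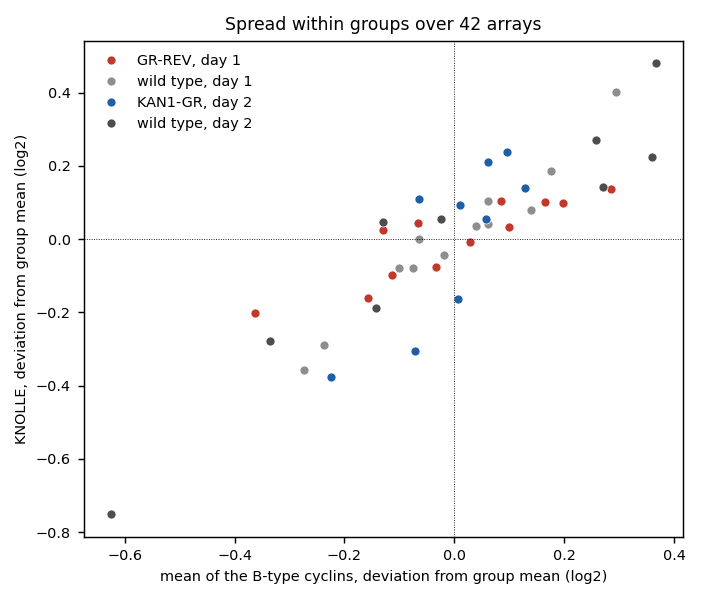
Deviation of KNOLLE from its group mean (log2, vertical) against that of the mean of the 8 B-type cyclin probe sets (horizontal), 1 point for each of the 42 arrays. Pearson's r is 0.888 over all arrays and 0.852 over the 40 left without the 2 farthest from the median of the B-type mean.

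Other genes of the cycle were examined by list beside the members. Of 18 tested probe sets of other cyclins, CDKs and CDK inhibitors, 2 were called before DEX in GR-REV and 0 in KAN1-GR. The shares of all tested probe sets were 15.9% and 10.7%. In the responses 0, 1 and 0 were called in GR-REV at 30, 60 and 120 min, and 1 and 3 in KAN1-GR at 30 and 60 min. The shares of all tested probe sets were 1.38%, 4.36% and 3.84%, and 2.4% and 6.84%. Where the count was 0, unadjusted p was under 0.05 for 2 in KAN1-GR before DEX and for 3 and 1 in GR-REV at 30 and 120 min, and an unmoderated spread called 0 too. In KAN1-GR at 60 min an unmoderated spread called 2 rather than 3. The calls in the responses were on KRP5, SMR4 and AT1G08180, and of the 3 in KAN1-GR at 60 min SMR4 lay nearest the threshold. KRP5 and SMR4 are CDK inhibitors by family, and AT1G08180 was listed among the SMR genes. KRP5 rose in KAN1-GR at 60 min (1.00 ± 0.18, adjusted p = 0.000249), with a mean of 1.00 ± 0.14 (SD, n = 3), against 0.00 ± 0.01 in wild type. The median spread within groups over all tested probe sets was 0.186. Whether KRP5 was near background in wild type cannot be said from centred values. SMR4 was lower in GR-REV at 60 min (-1.32 ± 0.29, adjusted p = 0.00537) and higher in KAN1-GR (0.93 ± 0.29, adjusted p = 0.0498), and the difference between the lines was -2.25 ± 0.42 (adjusted p = 0.000482). The GR-REV value included a higher SMR4 level before DEX in that line (0.76 ± 0.21, adjusted p = 0.0106).

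The locus AT1G08180, which has no name in the annotation used here, fell in KAN1-GR together with KRP1. In KAN1-GR its mean was -1.47 ± 0.28 after 30 min and -1.78 ± 0.21 after 60 min (SD, n = 3 each), against -0.22 ± 0.42 and -0.15 ± 0.17 in wild type. Its responses were -1.43 ± 0.25 and -1.81 ± 0.25 (adjusted p = 0.000556 and 6.81e-06).

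Of 19 probe sets of RBR, E2F and DNA replication genes limma called 0 in each of the 5 responses, with 0 to 3 at unadjusted p under 0.05, and of 21 of mitosis and cytokinesis genes likewise 0, with 0 to 4. An unmoderated spread called 0 as well. Over all tested probe sets the share called was 1.38% to 6.84% in these responses, so lists of this size would hold few calls at that share. Between the days of untreated wild type, where 11.8% of all tested probe sets were higher and 11.2% lower on day 1, 10 of the 19 were called, all higher, with TSO2, a subunit of the enzyme that makes deoxyribonucleotides, at 0.90 ± 0.19 (adjusted p = 0.00098) and the replication clamp PCNA1 at 0.63 ± 0.13 (adjusted p = 0.00145). Their median difference was 0.472. Of the 21 mitosis genes 11 were higher and 1 lower, with the kinases AUR2 at 1.47 ± 0.28 and AUR1 at 1.14 ± 0.19 (adjusted p = 0.000437 and 0.000173), and KEULE at -0.32 ± 0.09 (adjusted p = 0.00726). In KAN1-GR before DEX, which shares the day 2 arrays with that comparison, 3 of the 19 and 5 of the 21 were called, all higher, against 4.94% of all tested probe sets called higher. An unmoderated spread called 4 and 4 there. In GR-REV before DEX 4 of the 21 were called, 2 higher and 2 lower, against 15.9% of all tested probe sets. Of the 19, 0 were called in GR-REV, with 3 at unadjusted p under 0.05 and 0 with an unmoderated spread.

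Few markers of meristems were tested, and their calls fell in comparisons where 15.9% and 22.9% of all tested probe sets were called. Of 3 tested shoot meristem markers CLV1 was called in GR-REV before DEX (-0.42 ± 0.12, adjusted p = 0.012) and none in any other comparison. Of 2 tested root meristem markers SCR was higher in wild type of day 1 than of day 2 (0.50 ± 0.14, adjusted p = 0.0112), and none was called in any other comparison. Their part in the results above was not tested.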

How the data were processed

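Total RNA of whole seedlings was hybridised to 42 single-colour Affymetrix ATH1 arrays. Per the submitters' processing notes the authors used GCRMA, and the deposited log2 values were read as its output. Its version is not given in the sources used here, and base 2 was taken from that method. Each probe set has a median of 0 over the 6 untreated wild-type arrays, as checked on the values. The other deposited table differed by 0 at most. The authors' deposited ANOVA p-values, a unit other than expression, were used only to choose probe sets: 16164 have one and 6646 do not, for a reason not given in the sources used here. Less 35 control probe sets, 16129 were tested.

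Groups were taken from line, time and collection day, and each sample had a flask of its own. A linear model with a mean per group was fitted with limma 3.58.1 in R 4.3.3 (28 residual and 3.92 prior degrees of freedom, common prior), two-sided, with Benjamini-Hochberg adjustment over all tested probe sets in each of 15 comparisons. The 30 and 60 min wild-type comparisons average both days. No offset was added and no depth applies to arrays, whose number limits the precision. Alternatives were quantile normalisation, median centring, all probe sets, robust and unmoderated spreads, array weights, a block for replicate number, other references and leaving out each array.

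The members and lists were chosen with earlier results of these data known. All members could be named, with full values for those past the threshold, the lowest adjusted p and the ends of each class. Other lists are named by members past the threshold, up to 4 a comparison. Names come from RefSeq's annotation of TAIR10.1. A planned description of promoter motifs was not made, since no sequence table was used here.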

Additional observations from a re-analysis of the deposited data

Results flagged for a closer look

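The response to DEX differed between the lines in 5 cases, by limma's test of GR-REV minus KAN1-GR. Groups of 3 arrays were not tested for outlying arrays. For KRP7 the difference was 1.69 at 30 min (adjusted p = 0.0212), with responses of 1.62 in GR-REV and -0.07 in KAN1-GR. It was 1.40 at 60 min (adjusted p = 0.0363), with responses of 1.24 and -0.16 in the same order of lines. Without replicate 6 of wild type of day 2 at 0 min the 30 min value was 1.48 (adjusted p = 0.0513), and the 60 min call was kept in 11 of 24 fits without 1 array.

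For SMR1 the difference was 1.01 at 30 min (adjusted p = 0.0342) and 1.23 at 60 min (adjusted p = 0.00306). At 60 min SMR1 had a response of 0.76 in GR-REV and -0.47 in KAN1-GR, and the call was kept in 24 of 24 fits without 1 array. The KAN1-GR response includes a higher SMR1 level in that line before DEX. The 30 min call was kept in 11 of 24. For KRP2 the difference was 0.92 at 30 min (adjusted p = 0.0352), kept in 12 of 24, and 0.18 at 60 min (adjusted p = 0.77).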

How the results depend on the processing

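Of 41 member calls 12 kept direction and threshold under every alternative and without any array. Over 728 alternative values 570 kept both, 156 kept only the direction and 2 reversed: SIM in GR-REV at 30 min with the 30 min wild type as the sole reference (-0.0603) and CYCA3;1 in KAN1-GR at 0 min against wild types of both days (-0.0637).

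Quantile normalisation gave 12 calls for KAN1-GR at 0 min, 1, 0 and 0 for the GR-REV responses at 30, 60 and 120 min, 1, 1 and 1 for wild type at these times, 0 for the difference between lines at 30 min, and 3 and 8 for the difference between wild-type days at 30 and 60 min. Array weights gave 16 for KAN1-GR at 0 min, 5 for KAN1-GR at 30 min, 7 and 1 for wild type at 30 and 60 min, and 8 and 4 for the wild-type days. Testing all probe sets gave 2 for KAN1-GR at 0 min and 1 for the difference between lines at 60 min, as did an unmoderated spread there (1). Wild types of both days gave 9 for GR-REV and 0 for KAN1-GR at 0 min, 6 for GR-REV at 30 min and 2 for KAN1-GR at 30 min. Day 1 alone gave 1 for wild type at 60 min. The share of all tested probe sets called in each of these fits, or in the fits without 1 array, is not given here. These counts therefore cannot be read as particular to the members, and the cause of the changes was not tested.

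A single reference has a smaller error and keeps any difference at 0 min or any effect of DEX. Time-matched wild type gave 8 and 7 calls for GR-REV at 60 and 120 min and 7 and 6 for KAN1-GR at 30 and 60 min, of 34 members, against 12.8%, 15.4%, 14% and 18% of all tested probe sets. Own 0 min gave 10, 8 and 6 for GR-REV and 4 and 4 for KAN1-GR, against 17%, 18.1%, 12%, 6.41% and 12.3%. Wild types of both days (GR-REV at 30 min), array weights (KAN1-GR at 30 min) and 3 of the fits without 1 array (GR-REV at 60 min) called 1 member each that is not an inhibitor.

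Leaving out 1 array gave 2 to 4 calls for GR-REV and 0 to 7 for KAN1-GR at 0 min, 2 to 3, 1 to 5 and 1 to 2 for the GR-REV responses, 1 to 2 and 1 to 2 for KAN1-GR, 0 to 1, 0 to 0 and 0 to 0 for wild type, 9 to 19 between the days, 1 to 3 and 1 to 4 between the lines, and 0 to 1 and 0 to 3 between the wild-type days.

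Same-numbered samples were not paired by the labels. Between GR-REV and wild type of day 1 their deviations correlated at -0.311 to 0.168 over 12 pairs of arrays, 1 of them over 0.1 and 0 best with their own number. KAN1-GR was not examined in this way. A block for replicate number gave 1 call for the wild-type days at 60 min, 4 for KAN1-GR at 0 min and 2 for GR-REV at 30 min, where SIM was lost (adjusted p = 0.0825). Signal over background is not known for the centred values, so which members are near background cannot be said.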

Other observations

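KRP4 was lower in GR-REV than in wild type before DEX, with -0.55, -0.70 and -0.79 in GR-REV and -0.02, -0.32 and -0.35 in wild type of day 1. The arrays did not overlap, and the difference of -0.45 ± 0.16 was not called (adjusted p = 0.0532). CYCD1;1 read -2.14, -1.33 and -0.81 in GR-REV at 0 min and between -0.29 and 0.37 in the 9 GR-REV arrays after DEX, while its low wild-type array of day 1 read -2.23.

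CYCD4;1 read 1.11, 1.43 and 1.63 in GR-REV at 120 min, the highest group mean of any cyclin, against 0.29, 0.61 and 0.35 in wild type. It was called with the 120 min wild type as the sole reference (0.97) and not as a response, since the line stood higher before DEX.

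In wild type of day 2 at 30 min replicate 6 read -0.94 for KNOLLE, -1.29 for CYCB1;2 and -1.00 for CYCA1;1, against 0.08 and 0.29, 0.16 and 0.41, and 0.08 and 0.04 in replicates 4 and 5.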
